A study of Schizosaccharomyces pombe with 2 samples.

Results

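Fission yeast genes whose transcripts end, on average, at most 50 nt after the stop codon were examined, leaving out genes named as cytosolic ribosomal proteins. The genes were chosen by measured values: a protein-coding gene entered if its deposited read total 1 to 400 nt after the stop codon was at least 50 and its deposited mean poly(A) position at most 50 nt in both replicates, and if its name was not rpl, rps or rpp followed by digits. This rule held for 226 of 5113 protein-coding genes, or 226 of the 3616 genes without such a name that reached the read minimum (6.25%). With ribosomal protein genes included, 286 of 3756 measured genes lay at most 50 nt from the stop codon (7.61%). The comparisons are with all 3530 other measured genes and with the 60 of these that are ribosomal protein genes within the same distance. The name rule kept ubi3 and ubi5, both of which encode ubiquitin fused to the ribosomal protein S31, and the mitochondrial ribosomal protein genes mrpl1, rsm24 and sws2, so the genes are non-ribosomal by name only.

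The data are 3' READS libraries, in which sequencing reads mark the place where each polyadenylated RNA ended, from wild-type Schizosaccharomyces pombe (source name FWP9) growing exponentially in YPD, a rich medium, at 30 °C. The 2 libraries, replicates A and B, form 1 group with no control, and no source used here says whether they came from separate cultures. The spread between them may therefore be technical, and all comparisons are between genes, described without a test. The windows held 50977367 (A) and 54749219 (B) reads, of which the 226 genes took 3.91% and 3.83%.

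The end of an mRNA is set by cleavage of the growing transcript followed by addition of a poly(A) tail. In eukaryotes the cleavage machinery reads a signal upstream of the cut, classically AATAAA in DNA letters or a close variant, together with flanking elements. The stretch between stop codon and poly(A) tail, the 3' untranslated region (UTR), holds binding sites for proteins that act on stability, translation and localisation of the mRNA, and in the compact yeast genome it often borders or overlaps the next gene. Where the cut falls close to the stop codon, little untranslated sequence remains, and the upstream signal can fall on the coding sequence itself.

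The 6 genes with the most reads come first, since they carry most of the reads. Each sequence runs 5' to 3' on the coding strand of RefSeq assembly ASM294v3 and ends at the most used poly(A) position. Capitals mark the signal nearest that position, either AATAAA or a hexamer that differs from it by 1 base (18 such variants), searched 10 to 40 nt upstream. In tef102 and nce103 that stretch holds no such signal, and that of btf3 starts 1 base before the bases shown.
egd2, chrII:3274923-3274952, minus strand: attaAATACAactttttgctttttaccctc
btf3, chrI:4860582-4860611, minus strand: acaaaatatttcatgtcggatttttgactc
tef102, chrI:4096588-4096617, plus strand: tcatagtaatttatgaaattttgcatttag
nce103, chrII:3641197-3641226, minus strand: atgatagttaatttcactggaagttttctc
ipp1, chrI:2141418-2141447, plus strand: atatagAATATAgactatatctgcgacact
ubi3, chrI:3237875-3237904, minus strand: AATGAAatagtattttctactgtggtctag

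A further 6 sequences belong to the genes with most reads whose AATAAA (capitals) overlaps the stop codon. In SPAC23H4.07c, frs2, SPBC1778.07, gtp1 and mug151 the whole stop codon, TAA, is inside the signal, which starts 2 bases before it, while in naa10 the signal begins at the second base of TAA.
naa10, chrI:3730984-3731013, plus strand: acaactAATAAAatatataccgttatttct
SPAC23H4.07c, chrI:1595916-1595945, plus strand: ctttacAATAAAgatgcattaattattcac
frs2, chrI:3171563-3171592, minus strand: gaggAATAAAtttagtgtttttttttgcat
SPBC1778.07, chrII:3111183-3111212, plus strand: aattacgatttcAATAAAaatttttgaacc
gtp1, chrII:544719-544748, plus strand: aaAATAAAtaggaaaaatttttcgtttatt
mug151, chrI:1935779-1935808, plus strand: ctctcaacatcctaAATAAAtttgagtatc

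In erg12 and cab4, the only genes of the 226 with this arrangement, the nearest AATAAA (capitals) in that stretch lies wholly within the coding sequence before the stop codon.
erg12, chrI:194112-194141, minus strand: aatttAATAAAtattatatttaaagttttt
cab4, chrI:3818533-3818562, plus strand: aaAATAAAtgacatcttttttttacgtttg

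The shortest distances are those of csn4 and bpl1, whose most used positions lie 3 and 5 nt after the stop codon, here in capitals. In both the stop codon is TAG.
csn4, chrI:1160216-1160245, minus strand: accgttcttcaacattacggttctTAGacc
bpl1, chrII:3087999-3088028, plus strand: aaatttaataacaagaaaaactTAGttatg

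The median of the mean positions in A was 36.1 nt, and that in B 36.4 nt, which the rule limits to 50 nt. The most used position, taken from the reads of both replicates together, was at most 10 nt in 8 genes, 11 to 20 nt in 51, 21 to 30 nt in 58, 31 to 40 nt in 63 and over 40 nt in 46. It was the same base in A and B for 187 of the 226 genes (82.7%), against 2551 of the 3530 other measured genes (72.3%). The mean positions of A and B differed by a median of 1.61 nt in the 226 genes and by at most 10 nt in 204 of them. For the other genes the median difference was 5.49 nt, and it was 0.185 nt for the 60 ribosomal protein genes at most 50 nt from the stop codon, which have far more reads. A distance that can only lie between 1 and 50 nt leaves less room for a difference, and the effect of that limit was not tested.

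**Figure D1:**
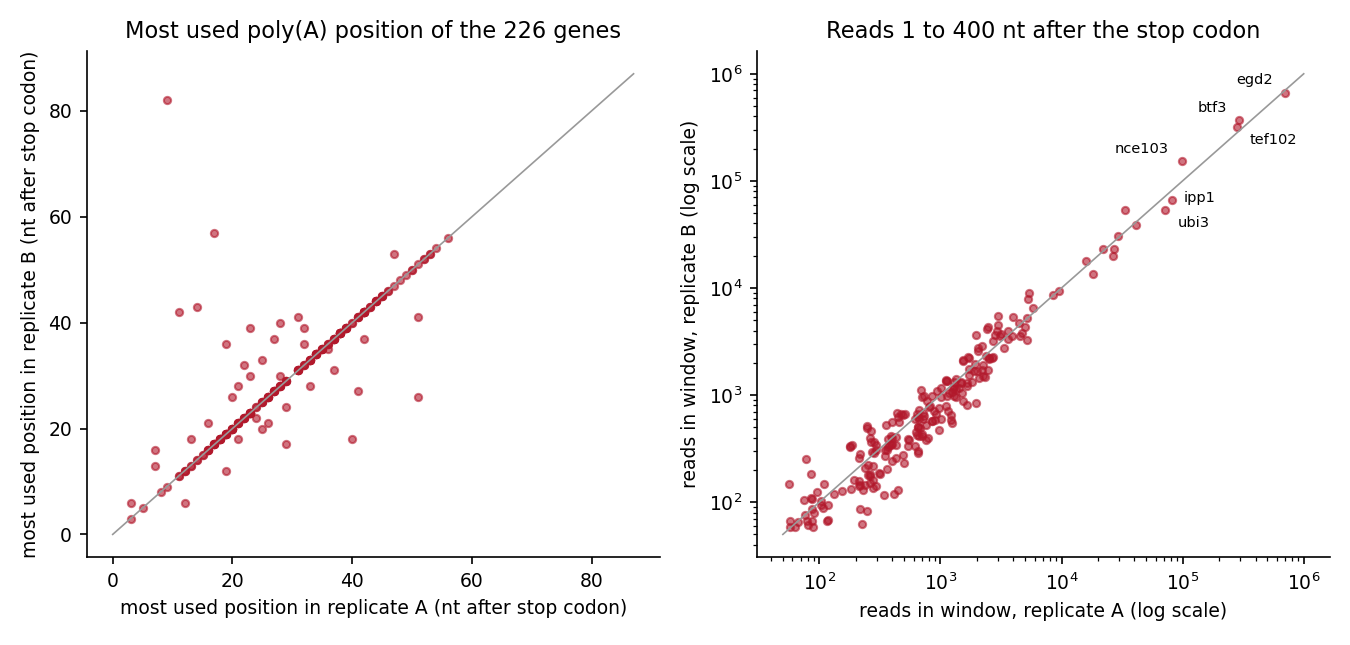
Most used poly(A) position in nt after the stop codon (left) and reads 1 to 400 nt after the stop codon on log scales (right), replicate A on the x axis and B on the y axis, 1 point per gene for the 226 genes; grey lines mark equal values. In 187 genes the most used position is the same in A and B, and egd2 has the most reads in both.

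The genes just inside the limit were fau1, an enzyme of folate metabolism (47.88 nt in A and 49.99 nt in B), ipp1, the inorganic pyrophosphatase (49.94 and 49.14 nt), the biotin-protein ligase gene bpl1 (28.98 and 49.90 nt) and SPAC8E11.06 (49.87 and 47.46 nt). Just outside were the proteasome subunit gene rpn6 (49.92 and 50.01 nt), nxt2 (49.14 and 50.15 nt), dpm3 (49.58 and 50.15 nt) and SPBC887.17 (46.22 and 50.27 nt). In all, 90 genes met the limit in only 1 replicate, 36 in A and 54 in B, these 4 among them. The genes on either side of the limit lay closer to each other than the A and B values of several of them, and 52 of the 226 genes had a position over 45 nt in A or B.

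Reads were spread very unevenly. Both subunits of the nascent polypeptide-associated complex, which meets new proteins at the ribosome, were among the genes: egd2 (alpha subunit) had 701011 and 666403 reads (A and B), and btf3 (beta subunit) 294812 and 367270. The translation elongation factor gene tef102 had 279130 and 319499 reads, the putative carbonic anhydrase gene nce103 97960 and 153283, ipp1 81026 and 66139, and ubi3 71830 and 53346. These 6 genes held 76.6% of the reads of the 226 genes in A and 77.6% in B, egd2 alone 35.2% and 31.8%. tef102, ubi3 and ubi5 have close paralogues, and how reads with several matches were placed is not given in the sources used here.

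The typical gene of the set was not deeply read. The median was 712.5 reads in A and 600 in B (quartiles 281 to 1933 and 262 to 1697), against 670.5 and 567.5 for the other measured genes. At least 1000 reads in both replicates were seen for 81 of the 226 genes (35.8%) and 1270 of the 3530 others (36.0%). The 60 ribosomal protein genes that end as close had a median of 92535 reads, with 8406 in the lowest.

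The 6 genes with the most reads each had 1 leading position, most of them beside further ones. In egd2 the reads fell at a mean of 31.93 nt in A and 31.83 nt in B, with 64.1% and 62.4% of them on position 34 and 34.2% and 35.9% on position 28. In btf3 the mean was 43.94 and 44.37 nt, with 47.6% and 46% on position 37, 31% and 32.5% on position 51 and 9.47% and 10.2% on position 54. In tef102 the mean was 33.00 and 33.11 nt, with 60.7% and 58.7% on position 33 and 28.7% and 28.4% on position 31. The shares at each of these positions were close in A and B. nce103 had its most used position at 19 nt, with 43.4% and 44.6% of reads, and 36.9% and 38.5% on position 26, but means of 43.89 and 37.32 nt, since 8.85% of its reads in A and 6.09% in B lay more than 100 nt after the stop codon. ipp1, with 64.9% and 67.1% on position 49, and ubi3, with 58.1% and 60.1% on position 35, had most of their reads on 1 base.

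**Figure D2:**
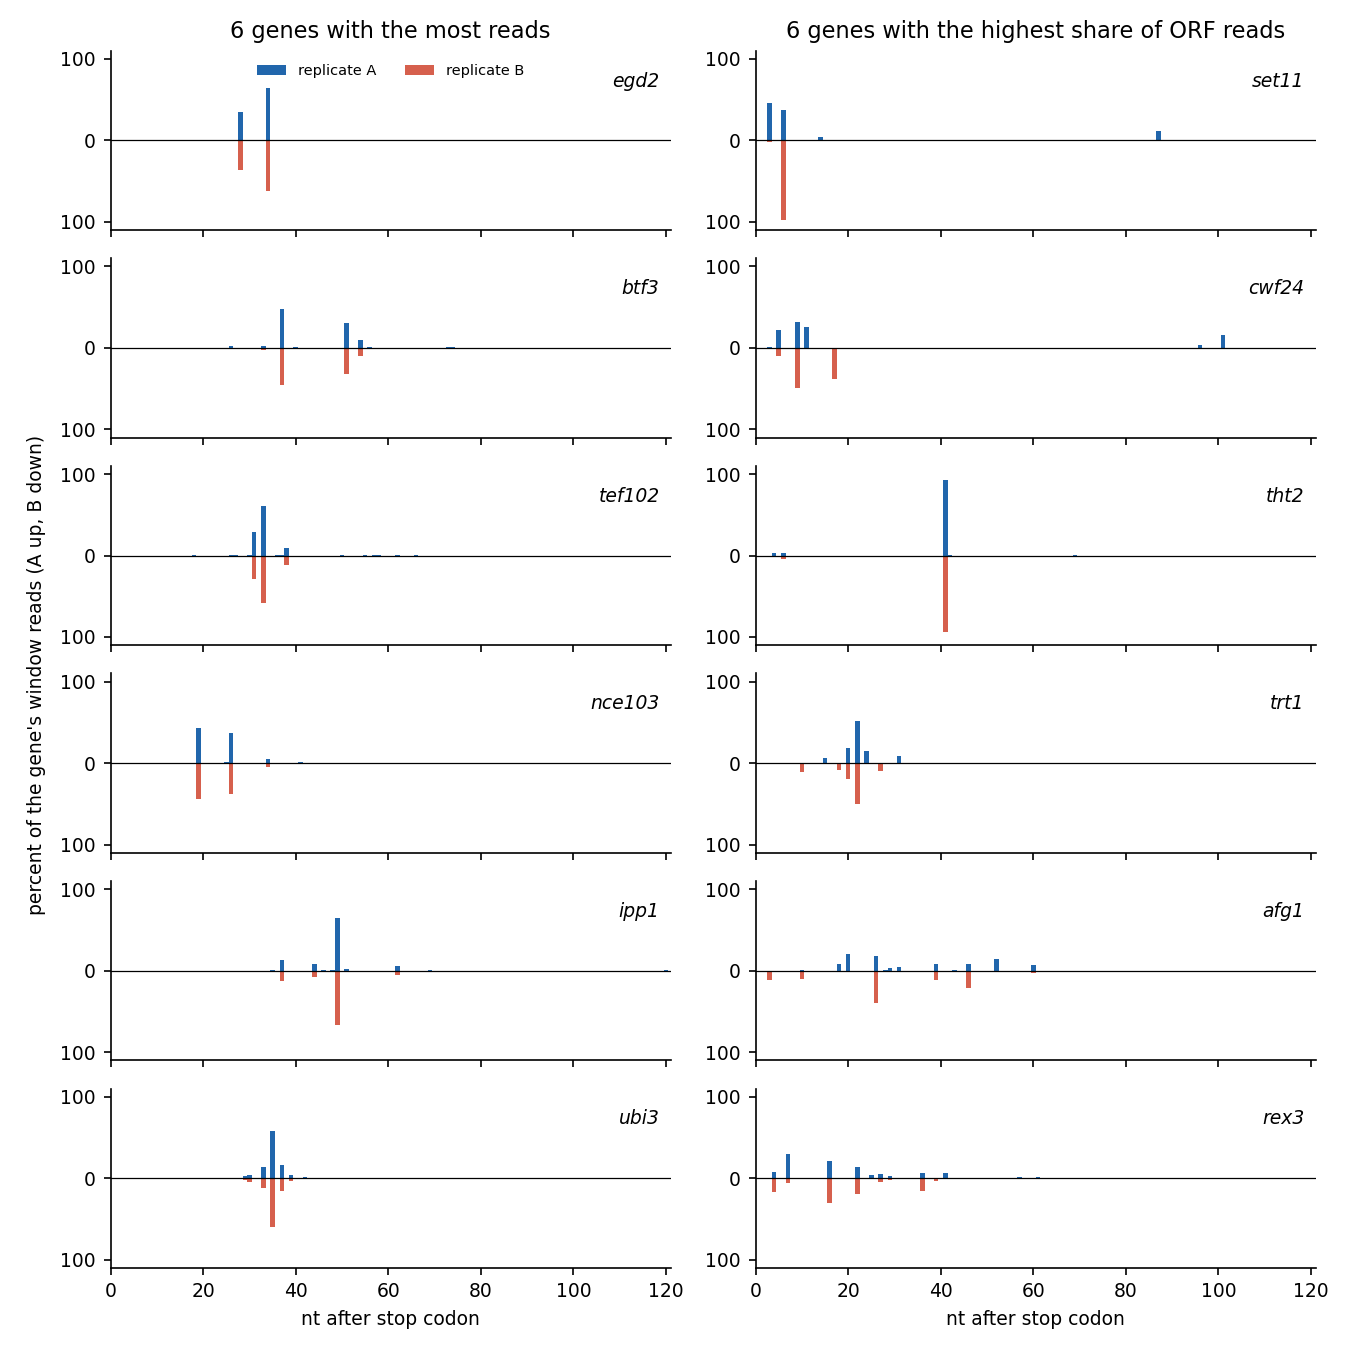
Share of a gene's window reads at each position 1 to 120 nt after the stop codon, replicate A drawn upwards and replicate B downwards, for the 6 genes with the most reads (left) and the 6 with the highest share of reads inside the ORF (right). The 6 genes with the most reads have the same main position in A and B, while set11, afg1 and rex3 have different ones.

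The width, measured as the distance between the positions that 10% and 90% of the reads reach, had a median of 15 nt in A and 12 nt in B for the 226 genes and of 65 and 62 nt for the other measured genes. The ribosomal protein genes that end as close had 6 nt in both. The width is read from the same profile as the mean position that chose the genes, so this is a description, and it depends on that choice. With genes chosen by their median or most used position in place of the mean, the median width was 35.5 or 46.5 nt, against 16 nt for the mean of A and B with the rule used. Width was 0 nt in both replicates for 14 of the 226 genes (6.19%) and 116 of the others (3.29%). The profilin gene cdc3, for an actin-binding protein, had 92.9% of 41523 reads in A and 93.5% of 38338 in B on position 38. The translation initiation factor gene tif313 (eIF3m) had 93.7% and 92.7% on position 34, and yar1, for ribosome biogenesis, 90.8% and 94.6% on position 14. These 3 genes were picked after their values were seen.

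The widest profiles belonged to bpl1 (30 nt in A, 214 nt in B), the vacuolar sorting gene vps45 (105 and 97 nt), mit1, a chromatin remodeller of the SHREC complex (85 and 94 nt), the glycine-tRNA ligase gene grs1 (96 and 78 nt), din1 (89 and 78 nt) and mis19 (61 and 102 nt). In vps45 36.0% of the reads in A and 22.5% in B lay more than 100 nt after the stop codon, beside a main site at 12 nt. At least 5% of reads past 100 nt in both replicates was seen in 12 of the 226 genes (5.31%) and 3022 of the 3530 others (85.6%). Like the width, this depends on the choice of genes by mean position. The genes with the largest differences between replicates were all thinly read or wide: tfb6, a subunit of the general transcription factor TFIIH, had mean positions of 44.6 nt in A and 19 nt in B from 119 and 94 reads, ero11, for oxidative folding in the endoplasmic reticulum, 38.92 and 15.40 nt from 56 and 149 reads, nse2, a SUMO ligase of the Smc5-6 complex, 17.79 and 38.83 nt from 75 and 105 reads, and bpl1 28.98 and 49.90 nt from 1117 and 784 reads. For tfb6 the most used position was 19 nt in both, with 17.6% of the reads past 100 nt in A and none in B.

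**Figure D3:**
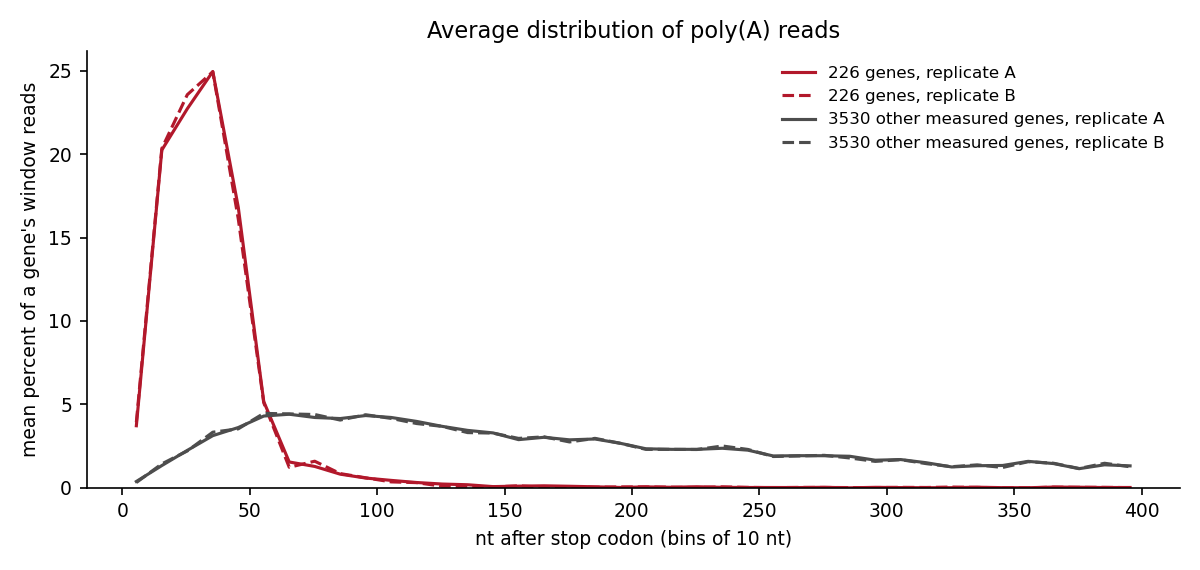
Mean share of a gene's window reads in bins of 10 nt, each gene weighted equally, for the 226 genes (red) and 3530 other measured genes (grey), replicate A solid and B dashed. In the 226 genes the bin of 31 to 40 nt is the highest, with 24.9% in A and in B, where the other genes have 3.13% and 3.33%.

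Some genes had many poly(A) reads inside the open reading frame (ORF), the coding part, as well. The share of ORF reads among ORF and window reads had a median of 0.925% in A and 1.16% in B for the 226 genes, against 0.376% and 0.893% for the other measured genes. The share of ORF reads reached 10% in 39 of the 226 genes in A and 32 in B (17.3% and 14.2%), against 230 and 299 of the 3530 others (6.52% and 8.47%). None of the 60 ribosomal protein genes reached 10%, and their median was 0.0381% and 0.0486%.

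The highest share was that of set11, a methyltransferase acting on a ribosomal protein, with 78.8% in A (975 ORF and 262 window reads) and 85.9% in B. Next was cwf24, a splicing factor gene, with 72.8% in A and 42.0% in B, from 292 and 107 ORF reads. The karyogamy gene tht2 had 42.5% and 65.5%, trt1, the catalytic subunit of telomerase, 53.8% and 53.2%, the ATPase gene afg1 37.9% and 61.3%, and the exonuclease gene rex3 39.0% and 52.0%. trt1 held its share and its position (22.33 and 20.47 nt) in both replicates, with 265 and 148 ORF reads. Where in the ORF these reads lie was not analysed here.

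Neighbouring genes were taken from the RefSeq annotation of ASM294v3. The next protein-coding gene downstream began closer to the 226 genes than to others: the distance from the stop codon to the neighbour's coding sequence had a median of 281.5 nt (quartiles 190 to 492 nt), against 508 nt (319 to 787 nt). A distance of at most 200 nt was found for 60 of the 226 genes (26.5%) and 341 of 3530 others (9.66%), and one of over 400 nt for 73 (32.3%) and 2257 (63.9%). The 60 ribosomal protein genes that end as close did not share the short distance, with a median of 487 nt. A convergent neighbour, on the opposite strand and facing the gene's end, was next to 148 of the 226 genes (65.5%) and to 2061 of the others (58.4%). Within each arrangement the distances stood apart in the same direction, 241.5 against 378 nt for convergent and 398.5 against 714 nt for tandem neighbours. These are descriptions without a test. Whether reads were assigned by strand is not given in the sources used here. In the convergent pair orc6 and ess1, whose stop codons lie 115 nt apart, ess1 had 3351 reads in A and 2737 in B with its main site inside the window of orc6, which held only 392 and 341 reads. In the pair frs2 and hos2, 170 nt apart, frs2 had 2492 and 1708 reads with its main site inside the window of hos2, which held 240 and 207. Most of the neighbour's reads were thus not counted in the windows of orc6 and hos2. Both genes were chosen by position, and such reads would have raised their mean positions. How strand was handled in other genes can therefore not be read from these pairs.

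**Figure D4:**
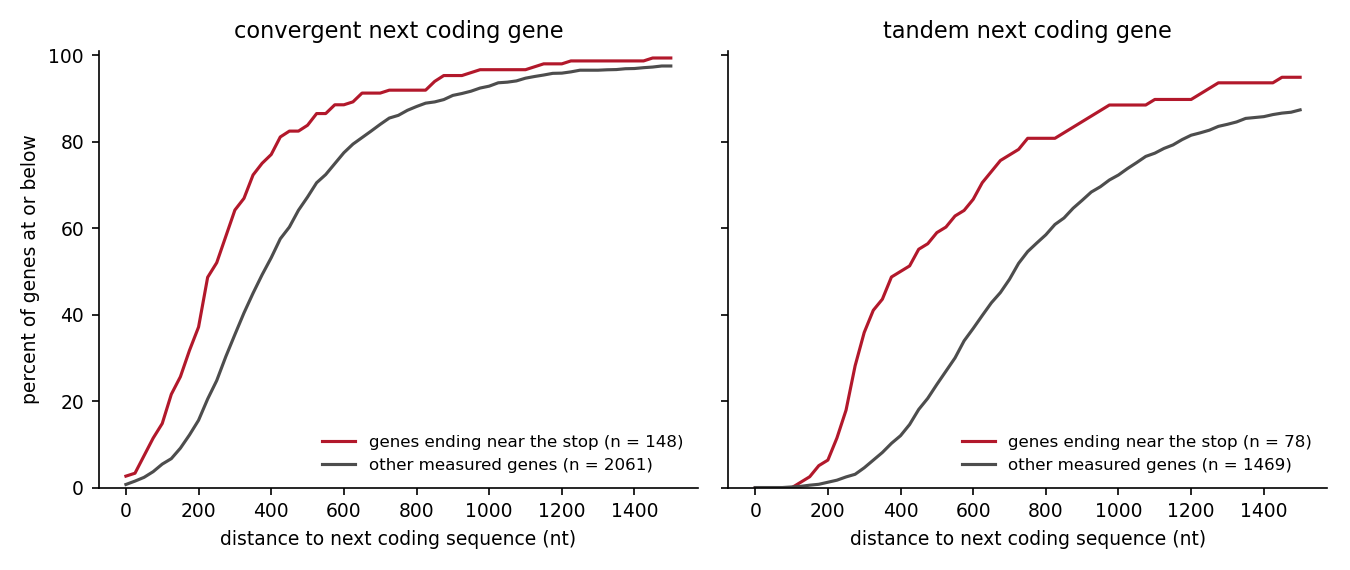
Cumulative percent of genes against the distance in nt from the stop codon to the next coding sequence, for convergent (left) and tandem (right) neighbours; red, the genes ending near the stop codon, grey, the other measured genes. Medians are 241.5 and 378 nt for convergent neighbours and 398.5 and 714 nt for tandem ones.

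In 4 genes the coding sequence itself overlapped that of a convergent neighbour. Counted back from the last base of the stop codon, the neighbour's coding span reached 34 nt into abz2, an enzyme gene of folate synthesis (neighbour rps3002), 20 nt into SPBC1711.15c (rec15) and 3 nt into rfc4 (rce1) and ure6 (pex3). rfc4, a subunit of the replication factor C clamp loader, had 4509 reads in A and 3566 in B, with 83.3% and 84.3% on position 23. abz2 had 800 and 772 reads, with 41.4% and 39.9% on position 42. The most used position lay inside the coding span of another gene in 8 of the 226 genes (3.54%), all on the opposite strand, and in 146 of the others (4.14%). The remaining 4 were rrn7, SPCC1919.07, ucp8 and naa25.

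Annotated 3' ends were often farther out. Of the 226 genes 214 had an annotated 3' UTR, with a median length of 96 nt, against 247 nt for 3420 other genes. Only 45 of the 214 (21%) were annotated as ending at most 50 nt after the stop codon, and 70 of the 3420 (2.05%). The annotated end lay a median of 67 nt past the most used position in the 214 genes and 64 nt in the others, and within 10 nt of it in 29 (13.6%) and 645 (18.9%). The longest annotated UTRs were those of swi1, for replication fork protection, with 4233 nt, cog2, a subunit of the Golgi tethering complex COG, with 4005 nt, the mitochondrial ribosomal protein gene sws2 with 3320 nt, and the kinetochore gene spc24 with 3110 nt. Their window reads nevertheless centred on 24.10 and 25.25 nt (A and B) in swi1, 29.00 and 28.44 nt in cog2, 35.66 and 35.51 nt in sws2, and 20.62 and 17.67 nt in spc24. The annotated end was more than 400 nt after the stop codon in 29 of the 214 genes, and reads past 400 nt were not counted.

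Coding length was near that of other genes. The coding sequence had a median of 1227 nt in the 226 genes and 1170 nt in the others, against 433.5 nt for the ribosomal protein genes that end as close. At least 1 intron was annotated in 129 genes (57.1%) and 1712 others (48.5%). The stop codon was TAA in 131 genes (58.0%), TAG in 66 (29.2%) and TGA in 29 (12.8%), against 59.7%, 20.9% and 19.4% of the other genes. None of the 60 ribosomal protein genes ended in TGA. Adenine and thymine made up a median of 76% of the first 50 nt after the stop codon in the 226 genes and 70% in the others, and 64% and 60% of the last 50 coding nt before it. In the stretch 10 to 40 nt before the most used position the median was 77.4% in both groups. By the choice of genes, the first 50 nt lie at or near that position in the 226 genes, so the comparison after the stop codon depends on that choice.

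A signal of this kind (AATAAA or a variant) lay in the stretch upstream, 10 to 40 nt before the most used position, in 180 of the 226 genes (79.6%) and 2499 of the 3530 others (70.8%). On the antisense strand of the same stretch the shares were 45.6% and 52.7%. AATAAA itself was present in 52 genes (23.0%) and 728 others (20.6%), with antisense shares of 6.19% and 7.42%, while 29 of the 60 ribosomal protein genes (48.3%) had it. Among genes with a signal the one nearest the poly(A) position was AATAAA in 23.9%, AATAAT in 10.6% and AATGAA in 10.6%, against 22.2%, 10.6% and 9.56% of the others.

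The place of the signal relative to the stop codon follows in part from the choice of genes by position. The nearest signal lay wholly in the coding sequence in 17 of 180 genes, overlapped the stop codon in 44 and lay after it in 119, against 13, 49 and 2437 of the 2499 others. For AATAAA alone the counts were 2, 22 and 28 of 52, against 1, 21 and 706 of 728 in the others. All 6 genes printed above with AATAAA on the stop codon had the same main position in both replicates. naa10, the catalytic subunit of the N-terminal acetyltransferase NatA, had 5181 and 3244 reads with means of 20.31 and 20.09 nt. SPAC23H4.07c, the beta subunit of the signal recognition particle receptor, had 2700 and 2291 reads at 30.26 and 33.97 nt, and the phenylalanine-tRNA ligase gene frs2 2492 and 1708 at 21.12 and 20.97 nt. SPBC1778.07, a carnosine N-methyltransferase by annotation, had 2190 and 1704 reads at 16.67 and 16.65 nt. The GTP-binding protein gene gtp1 (1996 and 1670 reads) lay at 31.58 and 38.19 nt and mug151 (1269 and 1144) at 16.61 and 23.50 nt. erg12, the mevalonate kinase gene, with AATAAA in its coding sequence, had 348 and 309 reads at 12.47 and 15.81 nt. Its most used position differed between replicates, 7 nt in A with 33.6% of the reads and 13 nt in B with 32.7%, and the sequence printed ends at 7 nt. cab4, with the same arrangement, had 183 and 133 reads at 18.50 and 18.19 nt.

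A TAA stop codon enclosed by AATAAA was found in 19 of the 131 genes that end in TAA (14.5%), 98 of 2108 others (4.65%) and 4 of 47 ribosomal protein genes. In 15 of the 226 genes (6.64%) and 11 of the 3530 others (0.312%) this signal also stood in the stretch searched, which follows in part from the choice of genes. Of the 24 AATAAA signals that hold coding or stop codon bases, 20 began at the second base of a codon, and 13 of 22 in the other genes. Of the 20, 15 enclosed the stop codon, and the rest began at its second base. No conclusion is drawn from these counts, because the stop codons TAA, TAG and TGA limit them. An AATAAA that overlaps the stop codon can begin only 2 bases before it or at its second or last base. An AATAAA wholly in the coding sequence cannot begin at a codon's second base without an in-frame TAA. Anywhere within 40 nt of the stop codon AATAAA was present in 65 of the 226 genes (28.8%), 358 others (10.1%) and 30 of the 60 ribosomal protein genes that end as close (50%). These shares, like those of TAA stop codons inside AATAAA, depend on the choice of genes by position.

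**Figure D5:**
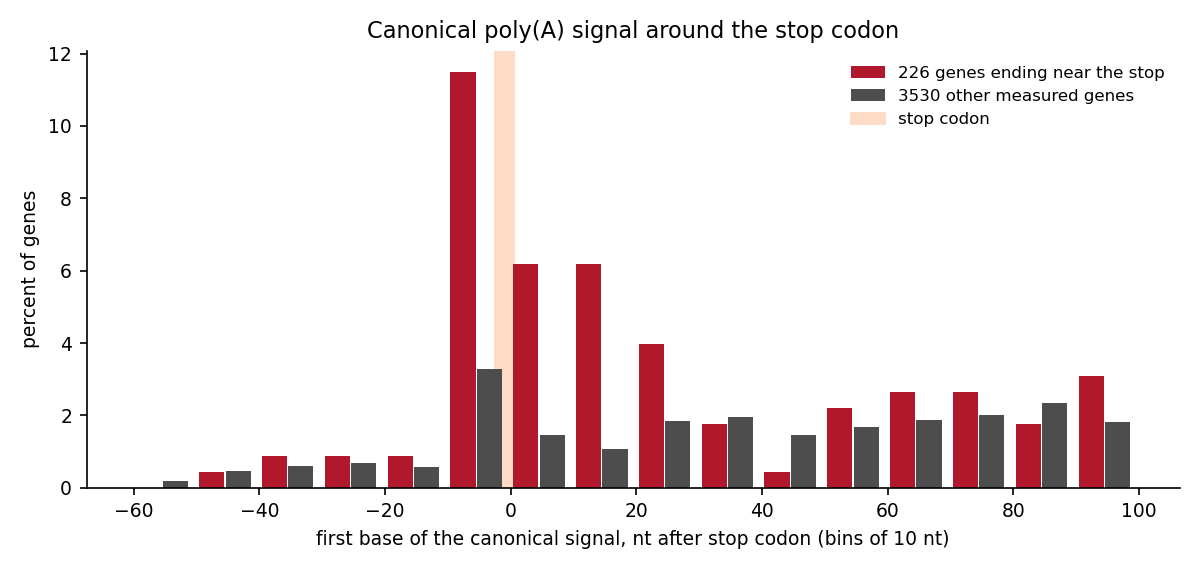
Percent of genes with the canonical signal AATAAA starting in each 10 nt bin around the stop codon (shaded), for the 226 genes (red) and 3530 other measured genes (grey). The bin that ends at the stop codon's second base holds 11.5% of the 226 genes and 3.29% of the others, which follows in part from the choice of genes by position.

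Downstream of the most used position TGTA was present within 60 nt in 117 of the 226 genes (51.8%) and 1672 others (47.4%), with 26.5% and 27.4% on the antisense strand. The ribosomal protein genes that end as close had it in 49 of 60 (81.7%). TTTTT was present within 60 nt upstream in 31.4% of the 226 genes and 40.3% of the others, and within 60 nt downstream in 33.2% and 32.1%; antisense shares were 28.3% and 21.8% upstream and 25.2% and 23.0% downstream. At least 7 of the 10 bases after the most used position were A in 12 genes (5.31%), tef102 and din1 among them, and in 215 others (6.09%). Priming on A-rich genomic sequence at these sites was not tested.

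By function the genes were a mixed group, and 133 of the 226 were in none of 28 lists built from names and annotated products. The lists are incomplete, since a gene enters only where its product name holds one of the words searched, so each count is of the list and not of the process. The shares stand beside 6.25% of all measured genes without a ribosomal protein name, and no list is set apart. The list shares were highest for vacuolar ATPase and vacuolar sorting (7 of 51 measured genes, 13.7%), aminoacyl-tRNA ligases (4 of 33, 12.1%), the spliceosome (11 of 92, 12%), mitochondrial import (2 of 18, 11.1%), RNA polymerases and general transcription (10 of 93, 10.8%) and chromatin (8 of 80, 10%). In the vacuolar list vma7, a subunit of the proton pump, had 2383 and 2292 reads at 33.61 and 32.97 nt, the ATPase gene vps4, which takes ESCRT complexes apart, 1469 and 1334 reads at 41.74 and 44.69 nt, and the retromer gene vps29 1527 and 886 reads at 46.89 and 39.48 nt. The spliceosome genes were led by srp1 (1730 and 1547 reads; 40.62 and 37.60 nt), dre4 (880 and 704; 20.30 and 18.55 nt) and cwf12 (717 and 680; 47.29 and 46.82 nt).

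In the transcription list rpa43, a subunit of RNA polymerase I, stood out by depth, with 33553 and 53051 reads at 38.94 and 37.97 nt. rpc82 of RNA polymerase III followed with 3129 and 3580 reads at 24.24 and 24.12 nt, and rrn7, an initiation factor of RNA polymerase I, with 1483 and 1305 at 33.90 and 34.81 nt. Chromatin genes were led by the sirtuin gene hst4 (3936 and 3589 reads; 45.91 and 45.82 nt), the histone methyltransferase gene set7 (3191 and 3709; 29.51 and 28.03 nt) and the histone chaperone gene abo1 (1297 and 1179; 35.78 and 31.74 nt). Ubiquitin and COP9 signalosome genes, 8 of 122 (6.56%), held ubi3, the conjugating enzyme gene ubc4 with 26918 and 22912 reads at 43.02 and 43.20 nt, and ubi5 with 18206 and 13624 at 45.40 and 47.64 nt. Meiosis genes numbered 5 of 55 (9.09%), with mug151, mug70 (676 and 497 reads) and spo13 (268 and 464) having the most reads.

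Below the share of all genes were the lists of membrane transporters (2 of 126, 1.59%), transcription factors (1 of 69, 1.45%), GTPases and regulators (2 of 84, 2.38%), chaperones (2 of 73, 2.74%), mevalonate and ergosterol synthesis (1 of 32, 3.12%) and tRNA modification (1 of 31, 3.23%). None of 61 genes in the protein kinase list, 28 in purine and pyrimidine synthesis or 16 in glycolysis and fermentation was among the 226. The kinase list missed at least gcn2, the kinase of the amino acid starvation response, and csk1, a cyclin-dependent kinase-activating kinase. Both are among the 226. Also below the share of all genes, but closer to it, were translation factors (3 of 57, 5.26%) and ribosome biogenesis (4 of 100, 4%). The same held for mitochondrial ribosomal proteins (3 of 65, 4.62%), the proteasome (2 of 41, 4.88%) and amino acid synthesis (3 of 55, 5.45%). The nuclear pore (3 of 40, 7.50%) and the kinetochore, spindle and cytokinesis (4 of 42, 9.52%) lay above that share. Counts given above also fall short of the genes present. The kinetochore list missed spc24, the ubiquitin list the F-box genes pof3 and pof14, and the chromatin list phf2 of the Lsd1/2 complex. For 4 further lists the count is plainly short as well. The list of DNA replication and repair counted 2 of 52 (rfc4 and kpa1), while orc6 of the origin recognition complex, sld5 of the GINS complex, swi1, the RecQ helicase gene rqh1, nbs1 and hnt3 are also among the 226. That of vesicle traffic counted 2 of 68 (trs65 and sec8) and missed cog2, cog5, cog6 and the coatomer gene sec28. That of the respiratory chain and ATP synthase counted 2 of 50 (cbp3 and cmc1) and missed atp7, a subunit of the ATP synthase, which had 5852 reads in A and 6489 in B at 37.14 and 36.37 nt. That of RNA cleavage, polyadenylation and surveillance counted 3 of 34 (rrp6, cid14 and pan3) and missed cft1 (1541 and 2140 reads at 35.19 and 37.01 nt), rna15 and mtr4. These missed genes were found after the values were seen, and all are among the 226. Measured genes outside the 226 that the lists missed were not counted, so the listed shares may be too low or too high. Products annotated as uncharacterized made up 4.87% of the 226 genes and 4.99% of the others.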

How the data were processed

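For each replicate the authors deposited a table which, per the file headers, gives signal values (reads summed 1 to 400 nt after the stop codon, over the ORF and at the most used position), each position's level in percent of the highest, and mean, median and most used positions. Bowtie is named in the submitters' processing notes; which version, settings, build and strand rule were applied is not given in the sources used here. The pooled table was not used. All window and ORF sums of at most 100 were multiples of 1 step per table (0.9297 in A, 0.8694 in B, with 100% whole within 0.1). Dividing by that step gave reads. The read minimum was applied to the deposited values. Intervals are not given: the 2 libraries are the only measure of error, and reads of 1 library are not independent molecules.

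Stop codons of all 5113 coding features were equal to those of RefSeq on ASM294v3, from which sequences, neighbours, products and annotated ends were read with Python 3.11.15, numpy 2.4.6 and pandas 2.3.3; functions were tested on simulated data. The labels name A and B as replicates, and they were kept as 2 samples; their tables are not copies (chi-square of the read totals of the 226 genes, 201 per degree of freedom), which does not show separate cultures. No p-value was computed, as there is 1 group. Alternatives changed the read minimum, the limit, the position measure, the signal window and the replicates used.

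The genes, lists and rules were chosen with earlier results of these data known. Genes named are the extremes of stated measures (reads, ORF share, nearness to 50 nt, closest neighbour, width, replicate difference, signal on the stop codon or in the coding sequence, annotated UTR), every gene with a most used position of at most 5 nt, and up to 3 by reads in each list with at least 5 of the 226 genes; others were chosen after their values were seen. Patterns of 2 lists (tRNA ligases, mitochondrial ribosomal proteins) were amended after product names and values were seen.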

Additional observations from a re-analysis of the deposited data

Results flagged for a closer look

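Outside the protein-coding genes, the tRNA feature SPBTRNAGLY.09 on chromosome II met both thresholds, with 206 window reads in replicate A and 86 in B (mean 146) at mean positions of 23.71 and 29.71 nt after its end. It was set aside as not protein-coding, and was looked at because its reads exceed the 3 reads that a count of 0 allows. The next coding gene, gef3, lies 829 nt downstream on the same strand.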

How the results depend on the processing

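The group of 226 genes depends on its cut. A limit of 40 nt gave 132 genes and one of 60 nt 365, the median position in place of the mean 381 and the most used position 433, while replicate B or A alone gave 285 and 273. Each other value is called moved where it differed from the value given by more than the SD between the results from A alone and B alone. At a minimum of 200 reads the median reads were 1104.5, the width 14.5 nt, the ORF share 0.765%, the distance to the next coding gene 292 nt, the convergent share 69.8% and the signal share 81.1%. At a minimum of 10 reads the ORF share was 1.49%, the distance 280 nt, the convergent share 63.6% and the signal share 77.7%. With a limit of 40 nt the width was 12 nt, the ORF share 1.41%, the distance 258 nt, the convergent share 68.9%, the signal share 80.3% and the share with a signal holding coding or stop codon bases 34.8%. With 60 nt they were 19 nt (width), 301 nt, 66.0%, 77.0% and 19.7%. With median positions the width was 35.5 nt, the ORF share 1.06%, the distance 333 nt and the shares 64.6%, 75.6% and 23.1%; with most used positions 46.5 nt, 338 nt, 64.9%, 74.4% and 22.9%. Recovered reads for the minimum gave a convergent share of 64.9%.

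Leaving out replicate A or B gave 507 to 650 median reads, a width of 16 to 17 nt, an ORF share of 1.05 to 1.26%, a distance of 287 to 289 nt, a convergent share of 65.6 to 66.3%, a signal share of 78.0 to 78.6% and a coding or stop share of 25.3 to 26.7%. With noncoding genes counted the distance was 126 nt and the convergent share 86.7%, against 223 nt and 82.0% for the other measured genes. A signal window of 10 to 30 nt gave 71.7%, against 65.0% in the other measured genes, and 21.2% for coding or stop bases. A window of 1 to 60 nt gave 84.5%, against 78.4%. AATAAA alone gave 23.0%, against 20.6%, and for coding or stop bases 10.6%, against 0.623%. AATAAA and ATTAAA gave 29.2%, against 25.7%. In place of the width, the effective number of sites was 3.47. The cause of these shifts was not tested. Depth limits single genes, since 52 of the 226 genes (23.0%) had under 200 reads in A or B, much like 848 of the 3530 others (24.0%). No paired analysis was possible because there is only 1 group.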

Other observations

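Some complexes had more than 1 subunit among the 226 genes. The 10 complexes looked at were picked after the values were seen, so their counts are descriptions only and show nothing about complexes in general. Of all measured genes without a ribosomal protein name 6.25% belonged. Among the complexes picked, the lowest shares were 2 of 10 for RNA polymerase III and 2 of 8 for the signal recognition particle and its receptor. For N-terminal acetyltransferases the count was 3 of 8. Of 5 measured genes of the COG complex, which tethers vesicles at the Golgi, 3 belonged: cog6 at 18.99 nt in A and 21.31 nt in B, cog5 at 25.99 and 26.15 nt and cog2 at 29.00 and 28.44 nt. cog8 lay just outside at 54.77 and 50.25 nt, and cog4 far away at 376.37 and 371.61 nt. Of the 8 measured genes of the Smc5-6 complex, which acts in DNA repair, nse2, nse4 (34.31 and 32.79 nt) and nse5 (36.23 and 44.35 nt) belonged, and smc5 lay at 206.91 and 204.73 nt. NatA, which acetylates the N-termini of new proteins, had its catalytic naa10 and its auxiliary naa15 (29.27 and 30.36 nt) in the set, while naa50 lay at 125.86 and 122.28 nt.

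Some genes for poly(A) tail metabolism were also present, and these too were picked after the values were seen. The list of RNA cleavage, polyadenylation and surveillance, which missed mtr4, counted 3 of 34 (8.82%). Of all measured genes without a ribosomal protein name 6.25% belonged. The genes picked include cid14 (41.54 and 29.41 nt) and mtr4 (47.41 and 46.34 nt) of the TRAMP complex, which adds short tails that mark RNA for decay. The TRAMP subunit air1 lay farther out (121.64 and 129.11 nt). The nuclear exosome nuclease gene rrp6 (38.31 and 38.04 nt) and pan3 of a poly(A)-specific nuclease (19.85 and 18.50 nt) belonged too. In the COP9 signalosome csn5, the protease subunit (21.12 and 29.56 nt), joined csn4, and csn3, csn1 and csn2 lay between 119.00 and 314.46 nt.

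In 4 convergent gene pairs both partners were among the 226 genes. The stop codons of spc24 and rrn7 are 27 nt apart, with most used positions 20 and 28 nt past their own stop codons, so that the most used position of rrn7 lies in the stop codon of spc24 and the transcripts overlap by 22 nt. The others are orc6 with ess1 (115 nt apart), frs2 with hos2 (170 nt) and isa2 with vma7 (207 nt), whose most used positions leave 72, 118 and 129 nt between them.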
